A study of Homo sapiens with 12 samples.

Results

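The WNT ligands of the neural tube were described in human neural progenitors that overexpressed the microRNA miR-10a or miR-10b. The family was taken as 10 genes, WNT1, WNT2B, WNT3, WNT3A, WNT4, WNT5A, WNT5B, WNT7A, WNT7B and WNT8B, out of 25718 genes in the files, and each was found by its gene symbol. Where a gene had several RefSeq transcripts, the transcript with the highest mean count stood for the gene. Of the 10 ligands, 7 passed the filter on low counts (a mean above 10 counts over the 12 samples) and were tested, whereas WNT2B, WNT3A and WNT5B did not pass it.

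The cells were H9, an established human embryonic stem cell line, transduced with a lentiviral vector that expresses GFP together with either miR-10a or miR-10b under doxycycline control, at a multiplicity of infection of 50. All cultures underwent 14 days of neural induction and were patterned towards ventral midbrain with Sonic hedgehog at 200 ng/ml and the GSK3 inhibitor CT99021, an agonist of canonical WNT signalling. By the paper's methods, both were in the medium only in the earlier part of the differentiation, before doxycycline was added at day 11. For each vector, 3 samples received doxycycline from day 11 to day 14 and 3 control samples did not, which gave 4 groups and 12 samples. The controls were cells carrying the same vector, so the effect of doxycycline itself cannot be told apart from that of the microRNA, and cells with a GFP-only vector were not analysed here. The hESCs were expanded on mouse embryonic fibroblasts before differentiation. The labels number the samples of a group from 1 to 3 without a statement of separate transductions, so p-values measure the spread between these samples, which may be technical.

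WNT proteins are secreted, lipid-modified ligands that bind Frizzled receptors. In the canonical branch, receptor binding with LRP5 or LRP6 stabilises β-catenin, which then activates genes with TCF and LEF factors. In the non-canonical branch, in which WNT5A is the best known ligand, cell polarity and calcium signals are used instead. In the developing neural tube, WNT1 is made at the midbrain-hindbrain boundary, the roof plate and beside the midbrain floor plate and is needed for the midbrain, WNT3A and WNT3 are made dorsally, and WNT8B is known from the forebrain and its dorsal midline.

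Total counts were between 10545487 and 14165426 per sample, and each control had a higher total than each doxycycline sample of its vector. Levels are in CPM, the counts of a gene per 1000000 counts of its sample, and a count of 3, used here as the detection floor, corresponds to 0.212 to 0.284 CPM. Counting error is the only error that this floor covers. Pairs of replicates gave a chi-square per degree of freedom of 1.22 to 1.93, except that replicate 2 of miR-10b with doxycycline gave 3.17 and 4.11 against the other two. Results that rest on this library are therefore also given without it. The induction showed in the counts on the precursors. MIR10A rose in miR-10a cells (log2 fold change 9.49), as did MIR10B in miR-10b cells (9.53). Progenitor and floor plate markers were present, with SOX2 at 1018 to 1209, SHH at 555 to 636, FOXA1 at 393 to 604 and EN1 at 87.2 to 111 CPM. The hindbrain and spinal cord gene HOXB4 lay between 0 and 0.272 CPM. OTX2, a marker of forebrain and midbrain, and LMX1B, used as a midbrain marker, were at most at 0.804 CPM and at 0. They have 7 and 3 listed transcripts, and reads shared by several transcripts appear not to have been counted, so these low values do not show absence.

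Sequences are shown because the question for a microRNA is whether its seed (bases 2 to 8) can pair with a transcript. The mature miR-10a-5p of the RefSeq table (GRCh38.p14, chr17:48579904-48579926, minus strand) is given with the seed in capitals. The entry of miR-10b-5p was not in that table, and the MIR10B hairpin holds the same 7 seed letters once. The longest 3′UTR of GENCODE 44 on GRCh37 was searched for each ligand, on the transcript strand. None of the 10 ligands held an 8mer (ACAGGGTA), a 7mer-m8 (ACAGGGT) or a 7mer-A1 match (CAGGGTA). Each stretch of letters was counted once, under the longest match it belongs to. Counted so, an 8mer stood in the 3′UTRs of 2.73% of the 9269 tested genes with an annotation, a 7mer-m8 outside an 8mer in 15.28% and a 7mer-A1 outside an 8mer in 7.49%. The 6mer CAGGGT outside any longer match stood in the 3′UTRs of WNT2B, WNT3, WNT7B and, at 2 places, WNT5B, and in 31.93% of those genes, whereas 43.89% of them held these 6 letters alone or within a longer match. It is given in capitals with the bases around it, 5′ to 3′ on the transcript strand.
hsa-miR-10a-5p: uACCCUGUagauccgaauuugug
WNT3, minus strand, 6mer at chr17:44841366-44841371: tggcagctCAGGGTggcctggt
WNT7B, minus strand, 6mer at chr22:46316352-46316357: acgggggtCAGGGTggcccaga
WNT2B, plus strand, 6mer at chr1:113068705-113068710: aggatgccCAGGGTtgggggca
WNT5B, plus strand, 6mer at chr12:1755859-1755864: gatgtcttCAGGGTcttgtcca
WNT5B, plus strand, 6mer at chr12:1756171-1756176: gcagaagcCAGGGTgcatgacc
The 3′UTRs of WNT1 (980 bases), WNT8B (928), WNT4 (2737), WNT5A (4377), WNT7A (2686) and WNT3A (1806) held none of these letters. A match is a description of the sequence and not a site of binding, and its absence in this window says nothing about the microRNA.

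The ligands were expressed at very different levels. To compare genes, the CPM was divided by the length of the transcript in kilobases, for the 6 tested ligands with 1 listed transcript. WNT8B was the highest of them in each group, with means from 67.3 ± 2.7 CPM per kilobase (SD, n = 3) for miR-10b with doxycycline to 101.6 ± 0.96 (SD, n = 3) in miR-10a controls. WNT1 came next, with means of 13.0 to 20.5 CPM per kilobase. In miR-10a cells, WNT4 (12.6 and 13.1 CPM per kilobase with and without doxycycline) stood above WNT3 (9.00 and 8.85), WNT7A (6.92 and 6.62) and WNT7B (1.32 and 1.42). In miR-10b cells, WNT3 (8.04 and 7.45) stood above WNT4 (6.01 and 6.66), WNT7A (4.92 and 4.48) and WNT7B (1.33 and 2.10). In this order no ligand overlapped its neighbour in any of the 4 groups, so that WNT3 and WNT4 exchanged places between the vectors. WNT5A, with 2 listed transcripts, was left out of this order because its count may miss shared reads.

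**Figure D1:**
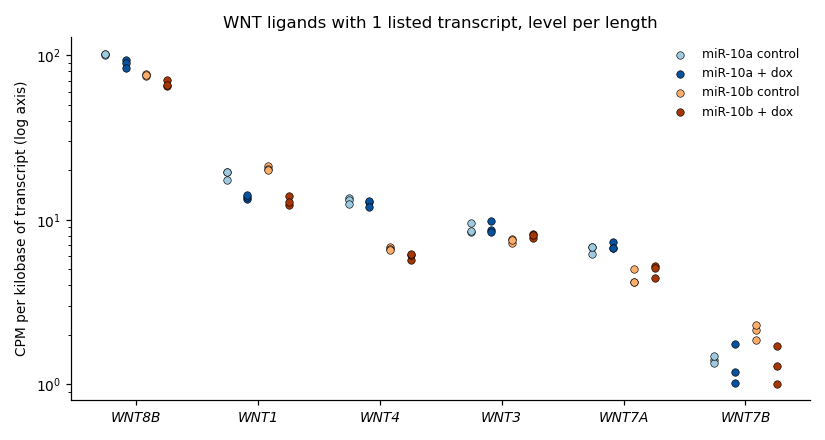
Level of the 6 tested WNT ligands with 1 listed transcript, in CPM per kilobase of transcript on a log axis. Each point is 1 of the 3 samples of a group, and WNT8B lies between 65.4 and 102.3 in all 12 samples whereas WNT7B lies between 1.01 and 2.29.

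WNT3A, WNT2B and WNT5B were at or near the detection floor. WNT3A, a canonical ligand of the roof plate with 1 listed transcript, had between 0 and 4 counts per sample, and at most 0.379 CPM. WNT2B, a ligand known from the dorsal midline and the margin of the retina, had between 0 and 5 counts on the best of its 3 transcripts. WNT5B, a relative of WNT5A, had 0 or 1 count on the better of its 2 transcripts and 0 in all 6 miR-10b samples. No direction can be read from these counts, and for WNT2B and WNT5B the loss of shared reads adds to this.

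Doxycycline was followed by lower levels of 3 ligands on average over both vectors, WNT1, WNT7B and WNT8B, and no tested ligand was higher past the threshold in that comparison. The edgeR quasi-likelihood test called 3 of the 7 tested ligands lower (Benjamini-Hochberg adjusted p under 0.05 over 11451 genes), against 6.22% of all tested genes called lower, 7.67% higher and 13.9% in either direction. The 7 ligands had a median log2 fold change of -0.10, and all tested genes one of 0.015. With miR-10a alone, 2 ligands were called lower and none higher, where 0.742% of tested genes were lower, 0.472% higher and 1.21% were called in either direction. With miR-10b alone, 3 were lower and 1 higher, against 7.15% and 8.18% of tested genes in these directions and 15.3% in either. The split of all genes over both vectors depended on the scaling, with 878 higher and 712 lower here against 665 and 852 with TMM factors and 464 and 743 with DESeq2, while the 3 ligands called stayed lower. In bulk samples, fewer cells of a type and less RNA per cell cannot be told apart.

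WNT1 (chr12:49372105-49376403, plus strand, GRCh37), the canonical ligand of the midbrain-hindbrain boundary, fell with both vectors. With miR-10a it stood at 44.5, 44.6 and 40.0 CPM in the controls and at 30.5, 31.5 and 32.5 CPM with doxycycline. With miR-10b it stood at 48.4, 46.3 and 45.8 CPM in the controls and at 28.1, 32.0 and 29.2 CPM with doxycycline. Each doxycycline sample lay below each control of its vector, with means of 31.5 ± 1.0 and 29.8 ± 2.0 CPM (SD, n = 3 each) in the doxycycline samples of miR-10a and miR-10b. Non-overlap in this direction with both vectors was found for 338 of the tested genes, or 2.95%. The log2 fold change, with its standard error (SE), was -0.45 (SE 0.065, adjusted p = 3.22e-05, edgeR) with miR-10a and -0.65 (SE 0.064, adjusted p = 1.1e-09) with miR-10b, so that WNT1 fell by 26.9% and 36.4%. Averaged over both vectors it was -0.55 (95% interval -0.65 to -0.46, adjusted p = 1.98e-11). Without replicate 2 of the miR-10b doxycycline group the change with miR-10b was -0.71 (adjusted p = 1.77e-11, edgeR). A fall of WNT1 with either microRNA was already reported from these data by the paper, which calls it robust.

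WNT8B (chr10:102222766-102243501, plus strand), a ligand of the dorsal forebrain midline and the highest of the family here, fell by a smaller amount and to a similar degree with both vectors. In miR-10a cells the controls stood at 204, 201 and 204 CPM and the doxycycline samples at 188, 178 and 167 CPM. In miR-10b cells the controls stood at 153, 149 and 151 CPM and the doxycycline samples at 131, 140.5 and 132 CPM. The groups of a vector did not overlap, and the spread was wider among the doxycycline samples (SD 10.5 and 5.3 CPM) than among the controls (SD 1.9 and 1.8 CPM). The log2 fold change was -0.19 (SE 0.039, adjusted p = 0.00551, edgeR) with miR-10a and -0.17 (SE 0.041, adjusted p = 0.00351) with miR-10b. The call with miR-10a rests on replicate 3 of its doxycycline group, the lowest of the 3, and without that library the change was -0.15 (adjusted p = 0.102, edgeR). Without replicate 2 of the miR-10b doxycycline group the change with miR-10b was -0.20 (adjusted p = 0.00035, edgeR).

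WNT7B (chr22:46316246-46373042, minus strand), which with WNT7A acts on progenitors and on the vessels of the brain, fell with miR-10b. In those cells the controls stood at 8.34, 8.96 and 7.29 CPM and the doxycycline samples at 6.65, 3.95 and 5.07 CPM, without overlap. With miR-10a the controls stood at 5.46, 5.29 and 5.85 CPM and the doxycycline samples at 6.88, 4.64 and 3.98 CPM, so that replicate 1 with doxycycline was the highest of the 6 samples. The log2 fold change was -0.65 (SE 0.16, adjusted p = 0.00389, edgeR) with miR-10b and -0.097 (SE 0.18, adjusted p = 0.904) with miR-10a. WNT7B had only 42 to 121 counts per sample, and an exon of it overlaps the annotated gene CR536603.1 on the same strand. Without replicate 2 of the miR-10b doxycycline group, the lowest of the 3, the change with miR-10b was -0.48 (adjusted p = 0.0361, edgeR). The average over both vectors, -0.37 (SE 0.12, adjusted p = 0.0311, edgeR), lost its call in 7 of the 12 fits that each left out 1 sample, where it lay between -0.50 and -0.29 with adjusted p up to 0.109.

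WNT5A (chr3:55499743-55524567, minus strand), the main non-canonical ligand and one made at the ventral midline of the midbrain, rose with miR-10b. In those cells the controls stood at 67.5, 66.2 and 64.4 CPM and the doxycycline samples at 77.1, 83.6 and 72.3 CPM, without overlap. In miR-10a cells the controls stood at 52.9, 52.5 and 48.0 CPM and the doxycycline samples at 53.5, 50.3 and 48.8 CPM, which overlapped. The log2 fold change was 0.23 (SE 0.053, adjusted p = 0.00179, edgeR) with miR-10b and -0.0075 (SE 0.059, adjusted p = 0.983) with miR-10a. Without replicate 2 of the miR-10b doxycycline group, the highest of the 3, the change with miR-10b was 0.18 (adjusted p = 0.0177, edgeR). Averaged over both vectors, WNT5A missed the threshold narrowly, at 0.11 (SE 0.040, adjusted p = 0.0535, edgeR).

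The values of WNT5A came from NM_003392, with 515 to 974 counts per sample. The other listed transcript, NM_001256105, had 22 to 46 counts. Fitted as a row of its own, it had a log2 fold change of -0.50 with miR-10b (SE 0.22, adjusted p = 0.125, edgeR), opposite in sign to the 0.23 of NM_003392 and not past the threshold. The rise of WNT5A is therefore that of the reads assigned to NM_003392 alone.

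Of the other tested ligands, WNT4 (chr1:22443806-22470462, minus strand), which guides commissural axons in the spinal cord, had levels of 26.5, 26.0 and 25.5 CPM in miR-10b controls and 22.4, 23.9 and 24.03 CPM with doxycycline. These groups did not overlap, yet a log2 change of -0.15 (SE 0.070, adjusted p = 0.153, edgeR) did not pass the threshold, and with miR-10a it was -0.055 (adjusted p = 0.791). WNT3 (chr17:44839872-44910520, minus strand), a canonical ligand, had 24.1, 25.5 and 25.3 CPM in miR-10b controls and 26.2, 27.6 and 27.1 CPM with doxycycline, without overlap and with a log2 fold change of 0.11 (adjusted p = 0.352, edgeR). WNT7A (chr3:13857755-13921568, minus strand) changed by 0.067 with miR-10a and by 0.14 with miR-10b (adjusted p = 0.882 and 0.503, edgeR), and its groups overlapped with both vectors. In all, 2 ligands did not overlap upwards and 4 downwards with miR-10b, where 16.3% and 12.3% of tested genes did so (28.7% in either direction), and 2 did not overlap downwards with miR-10a, where 7.75% did (18.2% in either direction). WNT4 exons overlap an annotated gene on the opposite strand, and the sources used here do not state whether counting used the strand.

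**Figure D2:**
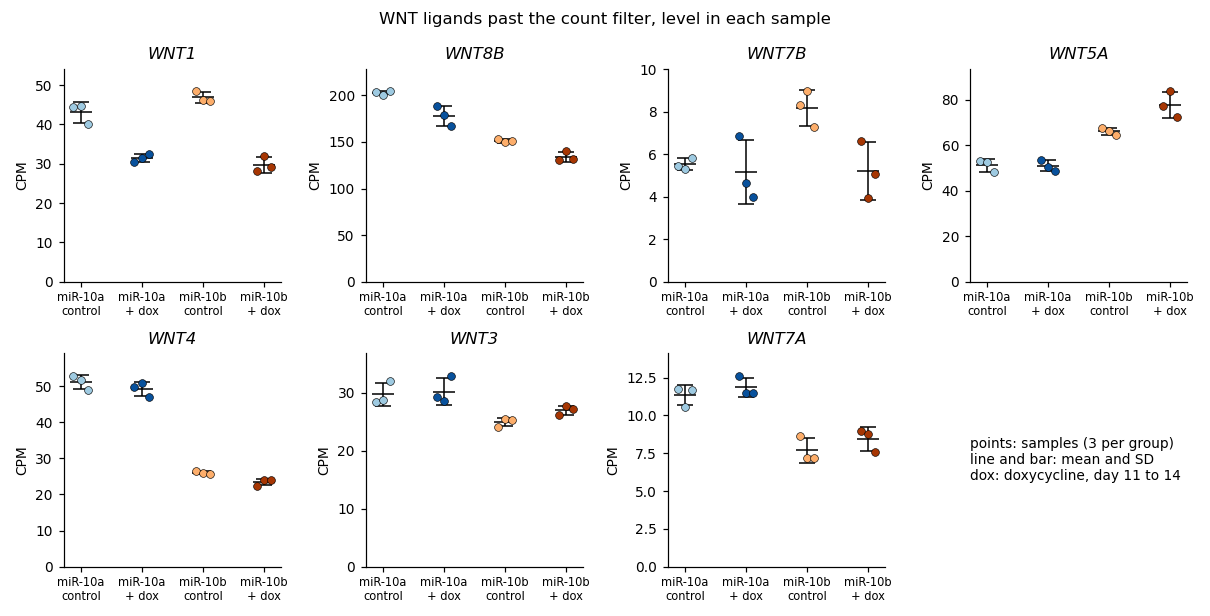
Level in CPM of the 7 tested WNT ligands, with points for the 3 samples of each group, a line for the mean and a bar for the SD. The 3 doxycycline samples of WNT1 lie below the 3 controls with both vectors, and WNT4 lies between 22.4 and 26.5 CPM in miR-10b cells against 47.0 to 52.7 CPM in miR-10a cells.

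The controls' totals were higher than those of the doxycycline samples, so the counts were also thinned to the lowest total, an alternative chosen after seeing the data. On thinned counts WNT1 changed by -0.44 with miR-10a and by -0.66 with miR-10b, WNT8B by -0.19 and -0.15, and with miR-10b WNT7B changed by -0.62 and WNT5A by 0.25. All 6 of these values kept their call (adjusted p at most 0.0187, edgeR).

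Whether the vectors differed in their effect was tested directly. None of the 7 ligands passed the threshold for this difference, where 1.96% of tested genes did (0.576% with a positive and 1.38% with a negative difference). DESeq2 called 0 as well, and 3 of the 7, WNT1, WNT5A and WNT7B, had an unadjusted p under 0.05 in edgeR. The miR-10b effect minus the miR-10a effect was -0.20 for WNT1 (95% interval -0.39 to -0.016, adjusted p = 0.317, edgeR), 0.24 for WNT5A (0.079 to 0.40, adjusted p = 0.12) and -0.55 for WNT7B (-1.04 to -0.066, adjusted p = 0.287). For WNT8B it was 0.018, with a narrow interval of -0.098 to 0.13. The calls of WNT5A and WNT7B with miR-10b and not with miR-10a are thus not shown to differ between the vectors, although without replicate 3 of the miR-10b doxycycline group the difference for WNT5A was 0.29 (adjusted p = 0.0334, edgeR).

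**Figure D3:**
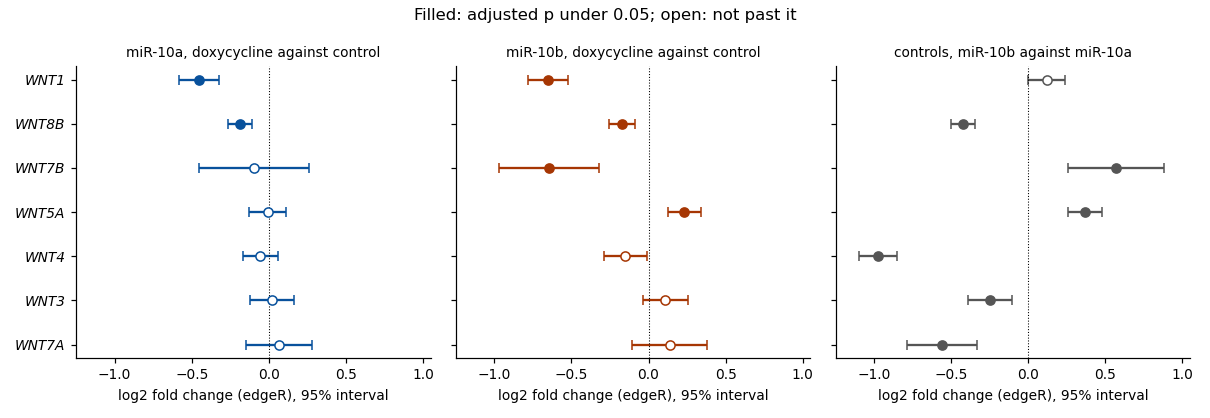
Log2 fold change (edgeR) of the 7 tested WNT ligands with its 95% interval, for doxycycline against control with miR-10a, the same with miR-10b, and the controls of miR-10b against those of miR-10a. Filled points have an adjusted p under 0.05, with 2, 4 and 6 of the 7 ligands filled from left to right.

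Without doxycycline, the cultures of the 2 vectors already differed in most of these ligands. WNT4, WNT7A, WNT8B and WNT3 were lower and WNT5A and WNT7B higher in miR-10b controls than in miR-10a controls, so that 6 of the 7 tested ligands were called, 4 lower and 2 higher, against 14.1% of all tested genes, 6.72% lower and 7.41% higher. The median log2 difference was -0.25 for the 7 ligands and -0.010 for all tested genes. All 7 ligands had control groups that did not overlap, 3 higher and 4 lower, which held for 14.2% and 15.9% of tested genes (30.1% in either direction). The vector and the set of cultures cannot be told apart here.

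WNT4 differed most, at 52.7, 51.7 and 49.0 CPM in miR-10a controls and 26.5, 26.0 and 25.5 CPM in miR-10b controls, a log2 difference of -0.98 (SE 0.060, adjusted p = 2.17e-15, edgeR). The change that followed doxycycline in miR-10b cells was -0.15. WNT7A stood at 11.7, 10.6 and 11.7 CPM against 8.66, 7.19 and 7.21 CPM, a log2 difference of -0.56 (SE 0.11, adjusted p = 0.000303, edgeR). WNT8B differed by -0.42 (SE 0.039, adjusted p = 1.31e-10, edgeR), so the mean of miR-10a cells with doxycycline, 178.0 CPM, was still above the 151 CPM of miR-10b controls. WNT5A was 0.37 higher (SE 0.056, adjusted p = 4.35e-06, edgeR) in miR-10b controls.

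The differences of WNT7B and WNT3 lost their call without single libraries. WNT7B was 0.57 higher in miR-10b controls (SE 0.15, adjusted p = 0.00871, edgeR), and 0.50 higher without their replicate 2 (adjusted p = 0.0625). WNT3 was lower by a log2 difference of -0.25 (SE 0.071, adjusted p = 0.0135, edgeR), which was -0.19 without replicate 3 of the miR-10a controls (adjusted p = 0.116) and -0.22 without replicate 1 of the miR-10b controls (adjusted p = 0.065). For WNT1 the difference was 0.12 (95% interval 0.0003 to 0.24, adjusted p = 0.199, edgeR), not past the threshold, although the 3 values of each group did not overlap.

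Some lists of cell type markers also differed between the controls, and others were split or little called. Of all tested genes, 7.41% were higher and 6.72% lower in miR-10b controls. Of the 8 tested of 10 floor plate markers, 6 were higher in miR-10b controls and none lower, and their summed level was 1980 to 2009 CPM against 1382 to 1385 CPM, with LMX1B at 0. Of the 5 tested of 7 mesenchyme and fibroblast markers, 4 were higher and none lower (summed 350.1 to 369.9 against 145 to 148 CPM), with DCN at most at 0.083 CPM and PRRX1 at most at 0.19 CPM. Both tested pluripotency markers of 7, LIN28A and DPPA4, were lower (summed 1229 to 1258 against 1643 to 1721 CPM), with NANOG at 0 and POU5F1 at most at 0.16 CPM. Of the other lists, neural progenitor markers were 2 higher and 2 lower of 6 tested, and forebrain markers 1 and 1 of 5. Cortical hem markers, a list that holds WNT8B, were 2 higher and 2 lower of 4 tested. Hindbrain and spinal cord markers were 2 higher and 1 lower of 4, and neuron markers 1 higher of 4. No tested neural crest marker was called. The part of these markers in the WNT differences was not tested.

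Some cell type markers also moved with doxycycline. Averaged over both vectors, 6.22% of all tested genes were lower and 7.67% higher. Of 8 floor plate markers, 1 was lower, CORIN (-0.53, adjusted p = 1.17e-05, edgeR). Of 6 neural progenitor markers, 3 were lower, SOX3 (-0.26), HES5 (-0.14) and NES (-0.090). SOX3 changed by -0.12 with miR-10a (adjusted p = 0.249, edgeR) and by -0.40 with miR-10b (adjusted p = 3.11e-07). Its vector difference passed the threshold (-0.28, adjusted p = 0.0173, edgeR). None of the 5 tested forebrain and 4 tested hindbrain and spinal cord markers was called. Among neuron markers MAP2 was higher (0.18) and SYT4 lower (-0.22), among neural crest markers ERBB3 was higher (0.38, and 0.36 with an adjusted p of 0.0737 in edgeR without replicate 2 of miR-10b with doxycycline), and no mesendoderm marker passed the filter. MAP2, with 4 listed transcripts, had means of 355 and 375 CPM without and with doxycycline in miR-10a cells. In miR-10b cells these were 357 and 434 CPM. Of the tested neuron and pluripotency markers, 1 each had a vector difference past the threshold. LIN28A was lower (-0.24), whereas DPPA4, the other tested pluripotency marker, had a value of -0.012 (adjusted p = 0.864, edgeR). The paper that reported these data names LIN28A as a miR-10 target lowered with both microRNAs. The sum of the pluripotency list is mostly LIN28A, with group means of 899 to 1539 CPM against 105 to 147 CPM for DPPA4. The summed pluripotency markers were 1526 to 1571 CPM with and 1643 to 1721 CPM without doxycycline in miR-10a cells and 996 to 1009 against 1229 to 1258 CPM in miR-10b cells. Of the 4 tested of 5 markers of the cortical hem and dorsal forebrain, a list that holds WNT8B itself, TTR was lower beside WNT8B (-0.37, adjusted p = 0.0214, edgeR), with -0.55 in miR-10b cells. COL1A1 was the mesenchyme marker called lower (-0.27, adjusted p = 0.000148, edgeR), with -0.60 in miR-10b cells and 0.051 (adjusted p = 0.875) in miR-10a cells. The summed mesenchyme markers were 145.3 to 164.6 with and 145 to 148 CPM without doxycycline in miR-10a cells and 291 to 313 against 350.1 to 369.9 CPM in miR-10b cells. The part of these markers in the fall of WNT1, WNT7B and WNT8B was not tested.

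Several WNT genes lie beside another WNT gene. WNT10B lies 6586 bases from WNT1 on the opposite strand of chromosome 12. It had 351 to 463 counts per sample and 30.3 to 34.9 CPM, and its log2 fold change averaged over both vectors was 0.067 (95% interval -0.031 to 0.16, adjusted p = 0.407, edgeR) where that of WNT1 was -0.55. WNT9B, 46 bases from WNT3, had 3 to 10 counts, and WNT9A, 59065 bases from WNT3A, had 13 to 33 counts. Of the 9 other WNT ligands, WNT10B and WNT9A were tested and neither was called in any of the 5 comparisons.

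Other genes of the pathway are given by their roles, on average over both vectors, where 7.67% of all tested genes were higher and 6.22% lower. Among genes for WNT secretion and release, 1 of 4 tested was higher, TRABD2B, an enzyme that cleaves WNT proteins (0.27, adjusted p = 4.45e-05, edgeR). GPC4, a cell surface proteoglycan, was lower (-0.096, adjusted p = 0.00798), an average of 277 against 260.3 CPM with and without doxycycline in miR-10a cells and 355 against 431 CPM in miR-10b cells, and its vector difference passed the threshold (-0.37, adjusted p = 1.53e-05). Of 15 tested receptors and co-receptors, 1 was lower, FZD7 (-0.14, adjusted p = 0.00101, edgeR), and none higher, with a median of 0.025. Of 13 tested transducers, 4 were higher and none lower, with a median of 0.070. These were BCL9L (0.21) and BCL9 (0.088), co-activators that bind β-catenin, DVL3 (0.12), which relays the receptor signal, and TCF7L1 (0.11), a TCF factor that mainly represses. With miR-10a alone, no tested secretion gene, receptor or transducer was called, where 1.21% of all tested genes were. With miR-10b alone, 1 secretion gene was higher and 1 lower, 1 receptor was lower and 5 transducers were higher. In that comparison 8.18% of all tested genes were higher and 7.15% lower.

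Among secreted modulators, 3 of 10 tested were lower and none higher, with a median of -0.090. They were DKK1 (-0.57, adjusted p = 0.00298, edgeR), which blocks LRP5 and LRP6, and the decoys SFRP2 (-0.12) and SFRP1 (-0.074). SFRP1 was higher on average with doxycycline in miR-10a cells (1023 against 1012 CPM) and lower in miR-10b cells (858 against 961 CPM), a vector difference of -0.18 (adjusted p = 0.0158, edgeR). Of 9 tested WNT target genes, 4 were lower and none higher, with a median of -0.12. DKK1 is also on this list, beside MYC (-0.24), SP5 (-0.21) and CCND1 (-0.12). The other tested targets were not called (adjusted p at least 0.369, edgeR). Of these, AXIN2 (-0.023) and NKD1 (0.024) had group means of 183 to 199 and 396 to 415 CPM. NOTUM (0.15), TCF7 (0.18) and ZNRF3 (-0.20) were low, with means of 2.83 to 4.38 CPM. The median of all tested genes was 0.015 and 6.22% of them were called lower. DKK1 was low, with means of 2.08 to 4.78 CPM.

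**Figure D4:**
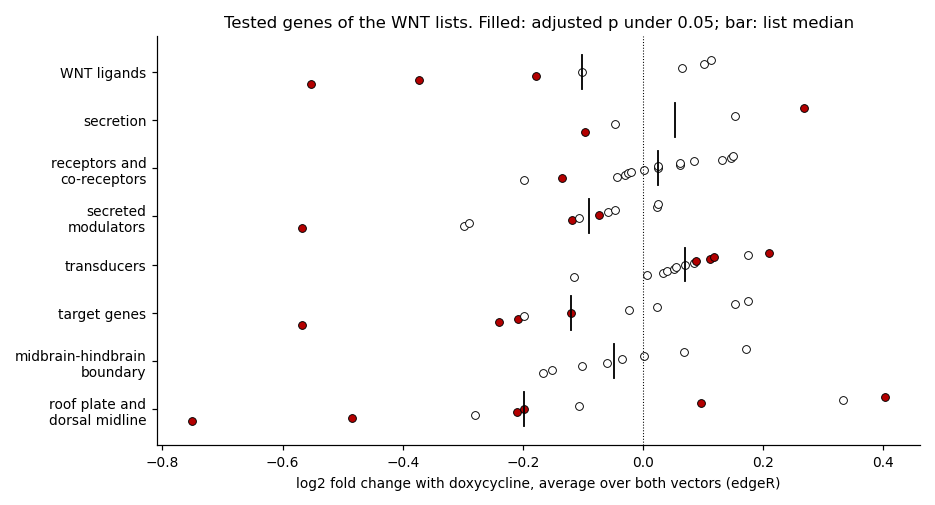
Log2 fold change with doxycycline, averaged over both vectors (edgeR), of the tested genes of the WNT ligands and of 7 lists of pathway and regional genes. Filled points have an adjusted p under 0.05 and bars are list medians, with 3 of 7 ligands, 4 of 9 target genes and 3 of 10 secreted modulators filled at negative values and 4 of 13 transducers at positive values.

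Regional genes that share domains with WNT1 were also followed. Of the 8 tested genes of the midbrain-hindbrain boundary, among them EN1, none was called on average over both vectors, and their median was -0.048. Of 9 tested genes of the roof plate and dorsal midline, 4 were lower and 2 higher, with a median of -0.20. Of all tested genes, 6.22% were lower and 7.67% higher. ZIC1 (-0.75, adjusted p = 1.17e-05, edgeR), BMP6 (-0.48, adjusted p = 1.08e-08) and MSX1 (-0.21, adjusted p = 0.0103) fell. BMP6 changed by -0.19 with miR-10a (adjusted p = 0.322, edgeR) and by -0.78 with miR-10b (adjusted p = 1.19e-10). The vector difference of BMP6 passed the threshold (-0.59, adjusted p = 0.000651, edgeR). MSX1 changed by -0.20 with miR-10a (adjusted p = 0.319, edgeR) and by -0.22 with miR-10b (adjusted p = 0.0544), past the threshold with neither alone. For MSX1, as for WNT1, the paper reports a robust fall with either microRNA. ZIC1 was at 2.74 to 6.64 CPM as a group mean. With miR-10a alone, no tested gene of the boundary or roof plate list was called, where 1.21% of all tested genes were. With miR-10b alone, 3 roof plate genes were lower and 1 higher, and no boundary gene was called. In that comparison 7.15% of all tested genes were lower and 8.18% higher.

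Between the controls, where 6.72% of all tested genes were lower and 7.41% higher in miR-10b cells, 6 of the 15 tested receptors and co-receptors were lower and 2 higher. Of 9 tested target genes, 3 were lower and none higher, and of 13 tested transducers 1 was higher and none lower. FZD10 differed by -0.95, to a mean of 19.2 CPM, and ROR2, a receptor of WNT5A, by -0.78, from 27.9 to 16.2 CPM. SP5, a direct canonical target, differed by -1.50, from 55.2 to 19.5 CPM. The target genes AXIN2 and NKD1 differed by only -0.12 (adjusted p = 0.0174, edgeR) and -0.057 (adjusted p = 0.324). Of 4 tested genes for WNT secretion and release, 2 were higher in miR-10b controls and none lower. They were GPC4 (0.73) and TRABD2B, from a mean of 24.6 to 50.8 CPM. Of 10 tested secreted modulators, 2 were higher and 3 lower. The genes of this paragraph were named after their values were seen, and FZD10, ROR2 and SP5 are all on the lower side.

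The genes whose pattern over the 12 samples was nearest to that of each ligand called over both vectors were found from the log2 level, log2(CPM + 0.5), centred on the mean of each gene. The root-mean-square difference to WNT1 was 0.077 for BNIP3, 0.13 for LGALSL and 0.13 for SCARA3, where WNT1 itself varied by 0.28 around its mean. BNIP3 had means of 52.7 and 40.4 CPM without and with doxycycline in miR-10a cells and of 59.8 and 36.8 CPM in miR-10b cells. WNT8B (0.23 around its mean) was nearest to AMOT (0.050), TRIM71 (0.057) and LHFP (0.077). For WNT7B (0.34 around its mean) the nearest were HELLS (0.14), CENPO (0.19) and AQP3 (0.19), which are farther, and HELLS and CENPO had means of only 0.729 to 2.16 CPM.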

How the data were processed

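RNA from 12 samples was sequenced, and the authors deposited raw read counts per RefSeq transcript of hg19, with the transcript length in bases beside them. The submitters' processing notes name STAR, featureCounts and Subread, with no versions given in the sources used here. The methods name the RNeasy kit and NuGEN Ovation libraries with poly-A enrichment, whereas the labels name the miRNeasy kit and Illumina kits. Each file held 51799 rows for 48101 transcripts, and 3698 repeated rows were dropped. Of the counts, 92.84% fell on genes with 1 transcript. ACTB (1 transcript) had a mean of 107119.8 counts and GAPDH (4 transcripts) 50.9 summed, so reads shared by transcripts appear not to have been counted.

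The test was the quasi-likelihood test of edgeR 4.0.16 under R 4.3.3 (glmQLFit, glmQLFTest), with Benjamini-Hochberg adjustment, a threshold of 0.05 and the total count as library size, on the 11451 genes with a mean above 10 counts. All 12 samples entered 1 fit with 4 group means. Comparisons were doxycycline against control for each vector, their average, their difference, and the controls of both vectors. Standard errors are the size of the log2 fold change divided by the root of F. The code was tested on simulated counts. Alternatives were TMM, DESeq2 1.42.0, other filters, summed transcripts, the replicate number as a block, each vector alone, thinned counts and leaving out each sample. Reference searches used Python 3.11.15. The ligands and lists were chosen with earlier results of these data known. All 10 ligands were named. From each list up to 4 genes called over both vectors were named, by size, and for each ligand called over both vectors the 3 genes nearest in pattern. The tested WNT target genes that were not called were named too. Some genes of these lists are not reported by name here.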

Additional observations from a re-analysis of the deposited data

How the results depend on the processing

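Over 20 settings, 679 values of single WNT ligands were recomputed, of which 651 kept their direction and side of the threshold, 11 lost a call, 5 gained one and 12 changed sign. The 12 were values that had no call. On thinned counts WNT3 with miR-10a was -0.0075 and the vector difference of WNT7A was -0.013. Leaving out 1 sample, the values with miR-10a ranged from -0.040 to 0.077 for WNT3, from -0.050 to 0.020 for WNT5A and from -0.35 to 0.048 for WNT7B, and the vector difference of WNT8B from -0.024 to 0.060. WNT5A over both vectors passed the threshold on thinned counts (0.12, adjusted p = 0.0467, edgeR), without miR-10a doxycycline replicate 3 (0.13, adjusted p = 0.0499) and without miR-10b doxycycline replicate 3 (0.14, adjusted p = 0.0142). Under TMM, DESeq2, either filter and summed transcripts, the number of ligands called was 2 with miR-10a, 4 with miR-10b, 3 over both, 0 for the vector difference and 6 between controls, as in the main results.

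Leaving out each sample, 1 to 2 ligands were called with miR-10a, 4 in each fit with miR-10b, 2 to 4 over both vectors, 0 to 1 for the vector difference and 5 to 6 between controls. The number of all genes called was 75 to 268 with miR-10a (139 with all samples, 268 without miR-10b doxycycline replicate 2, 75 without miR-10a doxycycline replicate 1 and 84 and 81 without replicates 1 and 3 of the miR-10a controls), 1215 to 1792 with miR-10b, 1202 to 1718 over both, 140 to 339 for the vector difference (140 without replicate 2 of the miR-10a controls, 339 without miR-10b doxycycline replicate 3) and 1231 to 1990 between controls. With only the samples of that vector, 275 genes were called with miR-10a, and with no filter the vector difference had 343 in place of 224. The cause was not tested.

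The replicate numbers did not pair the samples, since deviations from the group means correlated at -0.0093 for equal and 0.0047 for different numbers (mean r across genes). With the replicate number as a block, 166 genes were called with miR-10a, 1826 with miR-10b, 1680 over both, 274 for the vector difference and 1689 between controls. WNT5A over both vectors was then called (0.11, adjusted p = 0.0346, edgeR), and no other call of a ligand changed.

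Scaling moved the split of calls: over both vectors 878 genes were higher and 712 lower, against 665 and 852 with TMM and 464 and 743 with DESeq2. The share called higher was 55.2%, 43.8% and 38.4% in these fits over both vectors, 53.4%, 44.3% and 38.1% with miR-10b, 38.8%, 31.3% and 27.9% with miR-10a, and 29.5%, 22.7% and 11.8% for the vector difference. The median of all genes moved by at most 0.021 (log2). Depth limits WNT2B, WNT3A and WNT5B most, at 0 to 5 counts.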
